A study of Rattus norvegicus with 6 samples.

Results

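The nuclear-encoded subunits of respiratory complexes I, III, IV and V were compared between cultured rat spinal cord neurons with and without knockdown of GAL3 (galectin-3, gene LGALS3), a lectin that binds β-galactosides. Members were all listed genes whose symbol began with NDUFA, NDUFB, NDUFC, NDUFS or NDUFV for complex I, UQCR for complex III, COX4 to COX8 for complex IV and ATP5 for complex V. The assembly factors named NDUFAF were left out. This gave 83 of 17648 genes, with 38 in complex I, 9 in complex III, 18 in complex IV and 18 in complex V. Of these, 78 were protein coding and 5 were pseudogenes in RefSeq. A total of 70 members averaged at least 1 across libraries and entered the test, and the other 13 averaged less.

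The neurons came from the spinal cord of neonatal Sprague-Dawley rats and were grown for 3 days, with cytarabine (Ara-C) added to limit dividing cells. The Glu + siR-Con group (3 libraries) received a control small interfering RNA (siRNA) and the Glu + siR-GAL3 group (3 libraries) an siRNA against GAL3. By the study's methods and design text, both groups were exposed to glutamate, an excitatory transmitter that injures neurons in excess, at 10 μM for 1 h, followed by 16 h in medium free of it. The sample labels instead named saline for the Glu + siR-Con libraries and called the GAL3 samples a knockout, so if the labels are right, glutamate and the siRNA cannot be told apart in the group difference. The methods speak of independent repeats for the study's data in general, but neither they nor the labels say that the 3 libraries of a group came from separate cultures, so p-values measure the spread between these libraries, which may be technical.

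The values were linear expression values per transcript length that the authors derived from FPKM, and the sequencing depth behind them is unknown. LGALS3 had values of 77.4, 54.4 and 62.4 in the Glu + siR-Con libraries and -1.64, 32.3 and 18.5 in the Glu + siR-GAL3 libraries, replicates 1 to 3, without overlap (two-sided exact permutation p = 0.1, which is the lowest that 3 against 3 libraries can reach). Of 15 neuron markers in the file, 5 had a mean of at least 1. MAP2, a dendritic microtubule protein, was at 13.1 to 19.0, RBFOX3, the gene of the neuronal antigen NeuN, at 0.300 to 0.429 and CHAT, the enzyme of acetylcholine synthesis in motor neurons, at 0.0144 to 0.0287. The summed level of the neuron list was 33.9 to 39.0 in siR-Con and 32.2 to 39.2 in siR-GAL3 libraries. The summed levels of the astrocyte list were 865 to 1008 and 747 to 809, those of the oligodendrocyte lineage list 1076 to 1140 and 1084 to 1409, and those of the microglia list 125 to 149 and 157 to 178. The astrocyte sum was mostly GFAP, at a mean of 655 in siR-Con and 524 in siR-GAL3. In that list 5 genes were lower in siR-GAL3 and 2 were not, GJA1 (31.1 and 31.4) and SLC1A3 (21.5 and 22.6). The libraries therefore held abundant glial transcripts, and differences in the summed levels of the microglia and astrocyte lists went with the group. Their part in the results for the respiratory chain was not tested. In bulk RNA, fewer cells of a type and less RNA per cell cannot be told apart.

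The libraries fell into 3 sets by values that were exactly equal between libraries. One set joined siR-Con replicate 1 with siR-GAL3 replicate 1, and another joined siR-GAL3 replicate 3 with siR-Con replicates 2 and 3. No other library belonged with siR-GAL3 replicate 2. Pairs within a set shared 1312 to 1463 values and pairs from different sets 238 to 264. What siR-GAL3 replicate 2 shows therefore cannot be told apart from its set. Of the 83 members, 6 had the same value in at least 2 libraries.

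The respiratory chain sits in the inner mitochondrial membrane. Complex I takes electrons from NADH and complex III passes them from ubiquinol to cytochrome c, from which complex IV hands them to oxygen. All of them pump protons, and complex V, the ATP synthase, uses the proton gradient to make ATP. Except for complex II, each complex joins a few subunits made in the mitochondrion with many encoded in the nucleus. Neurons depend heavily on this supply, and calcium entry after glutamate loads their mitochondria.

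The nuclear-encoded members lay above the siR-Con libraries mainly in 1 library, siR-GAL3 replicate 2. This library held the highest of the 6 values in 64 of 70 tested members, which was 91.4% of them, against 41.5% of all 8495 genes tested. It held the lowest value in 1.43% of tested members, against 35.1% of all genes, so it stood apart in both directions over all genes. The summed level of all 83 members was 741, 707 and 700 in siR-Con replicates 1 to 3 and 706, 969 and 713 in siR-GAL3 replicates 1 to 3. Apart from siR-GAL3 replicate 2 the sums spanned a narrow range, and the other siR-GAL3 libraries lay inside the range of siR-Con. Column totals over all genes were 64313 to 64714.

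Relative to the siR-Con mean on the log2(value + 1) scale, the median member lay at 0.04, -0.01 and -0.03 in the siR-Con libraries and at -0.01, 0.52 and 0.02 in siR-GAL3 replicates 1 to 3. Over all genes the SD of this deviation was 0.38 in siR-GAL3 replicate 2 and 0.07 to 0.18 in the other libraries. The median over all genes in siR-GAL3 replicate 2 was 0.03, with quartiles of -0.21 and 0.24. Members had quartiles of 0.40 and 0.63 there, and 59 of 70 lay above the upper quartile of all genes. The median shift had a similar size in each complex, at 0.52 for complex I, 0.46 for complex III, 0.51 for complex IV and 0.49 for complex V. Members were more mixed in complexes III and V, with quartiles of 0.16 and 0.70 and of 0.27 and 0.64. The quartiles were 0.43 and 0.62 in complex I and 0.43 and 0.60 in complex IV.

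**Figure D1:**
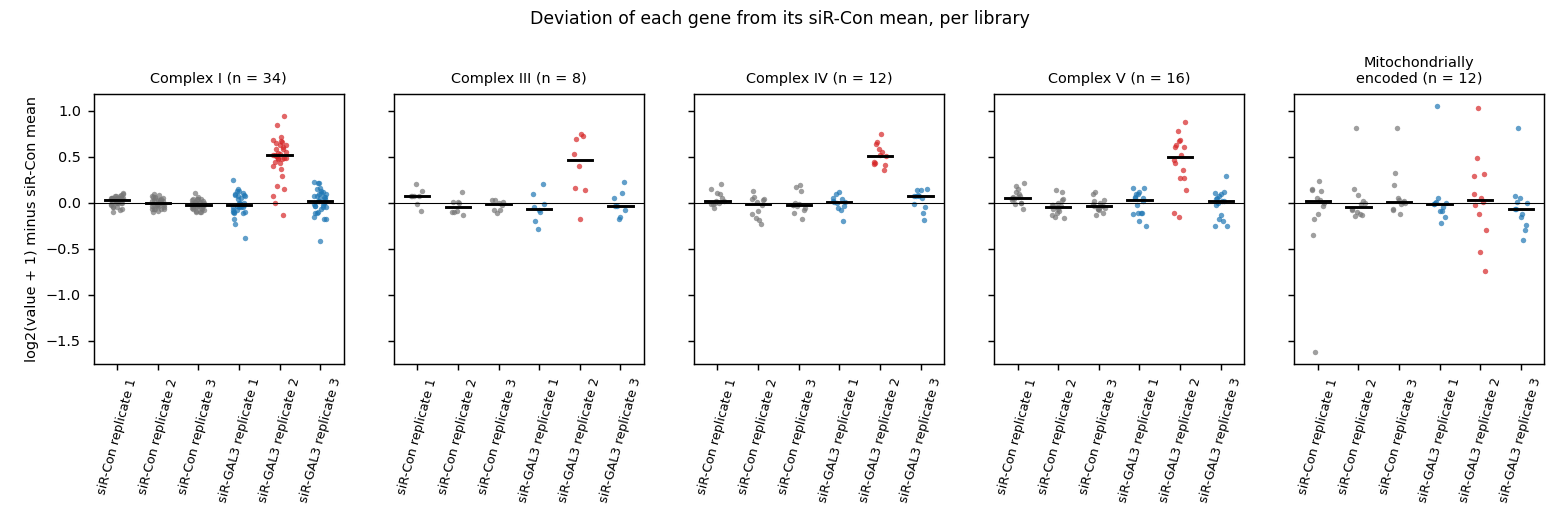
Deviation of each gene from its Glu + siR-Con mean (y axis, log2(value + 1) difference) in each of the 6 libraries (x axis), in panels for the tested members of complexes I, III, IV and V and for 12 mitochondrially encoded genes, with 1 point for each gene and a black bar at the median (grey, siR-Con; blue, siR-GAL3 replicates 1 and 3; red, siR-GAL3 replicate 2). In siR-GAL3 replicate 2 the medians lie between 0.46 and 0.52 for the complexes and at 0.03 for the mitochondrially encoded genes.

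Over all 6 libraries the median log2 fold change (siR-GAL3 against siR-Con) of the members was 0.17, with 59 positive and 11 negative, against a median of -0.00 and quartiles of -0.10 and 0.10 over all genes tested. By complex the medians were 0.17 for complex I, 0.09 for complex III, 0.19 for complex IV and 0.19 for complex V. Without siR-GAL3 replicate 2 the median of the members was 0.00, with 36 positive and 34 negative. The direction of the group as a whole therefore rested on that library.

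No member passed an adjusted p under 0.05 in limma with Benjamini-Hochberg (BH) adjustment, and neither did any of the 8495 genes tested (0.0%). The smallest adjusted p of a member was 0.491. At an unadjusted p under 0.05, 3 members (NDUFC1, UQCRB-PS1 and ATP5IF1) were higher in siR-GAL3 and 0 were lower, against 4.41% and 4.25% of all genes. The 3 became 0 without siR-Con replicate 1 (2.99% of all genes) and 0 without siR-Con replicate 3 (2.33%). They became 10 without siR-GAL3 replicate 1 (7.83%), 5 without its replicate 3 (3.74%), and 5 with 8 lower without its replicate 2 (6.98% and 9.36%). The study's methods give a cutoff of an absolute log2 fold change over 1 with an unadjusted p under 0.05 for its public datasets, whereas its supplement on sequencing names an adjusted p under 0.05. No member met the former, which 0.318% of all genes met. The values of the groups did not overlap in 13 members that were higher and 4 that were lower in siR-GAL3, against 10.3% of all genes in each direction.

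**Figure D2:**
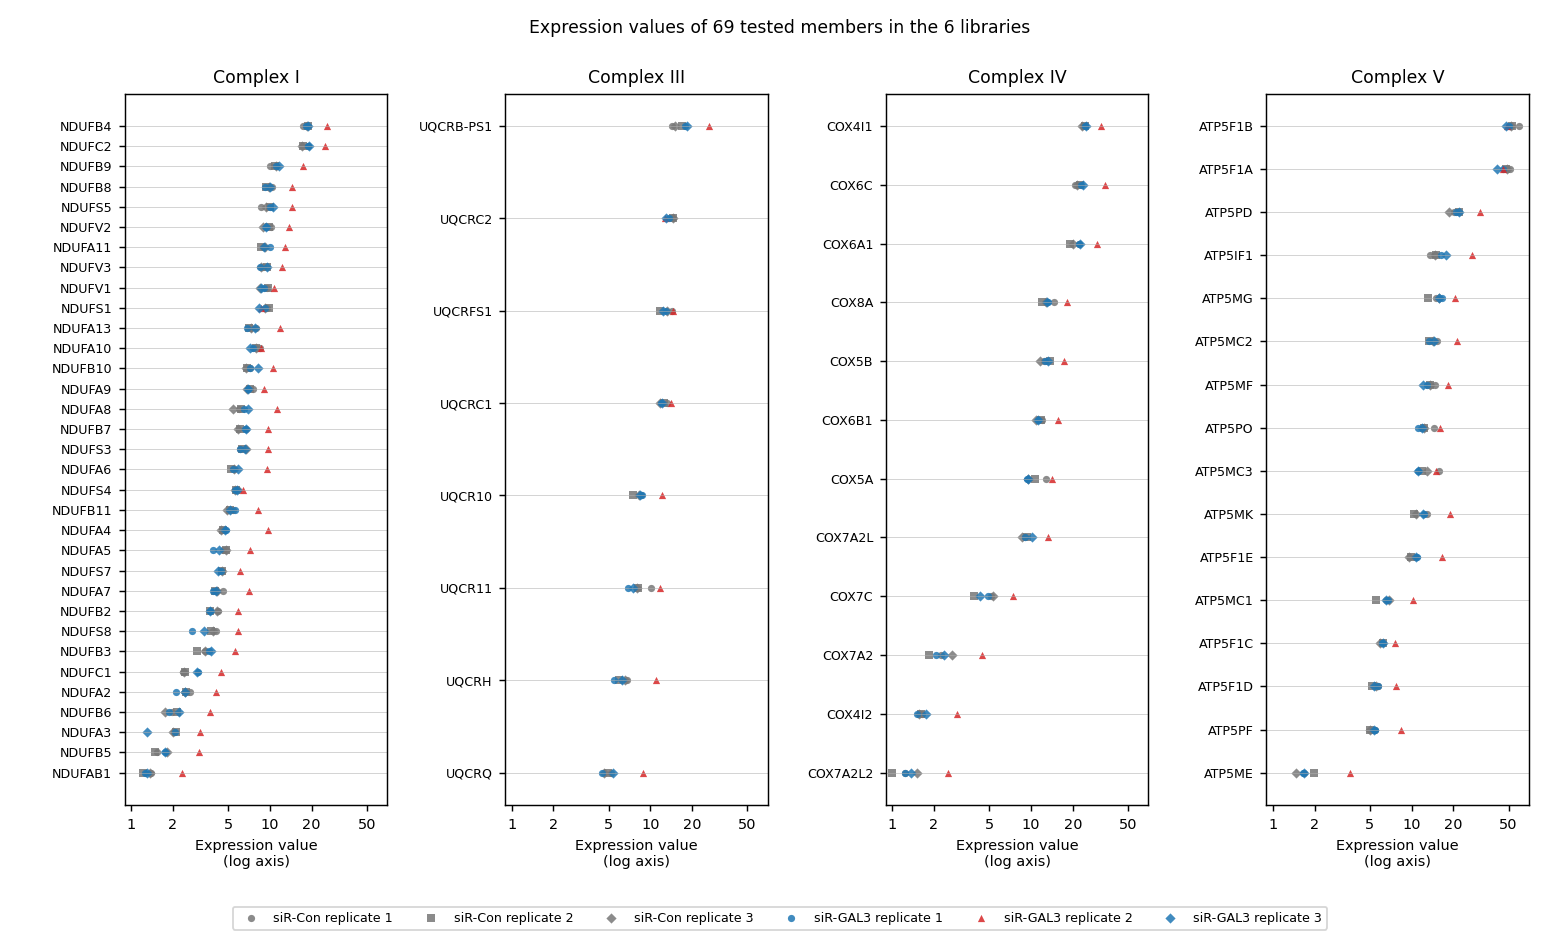
Expression values (x axis, linear FPKM-derived values on a log axis) of 69 of the 70 tested members, ordered by mean within each complex (y axis), with 1 point for each library. In 64 of them the red triangle of siR-GAL3 replicate 2 is the rightmost point, whereas the grey siR-Con points and the blue points of siR-GAL3 replicates 1 and 3 lie close together.

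Complex I has a core of catalytic subunits around which many accessory subunits are arranged, and its 7 nuclear-encoded core subunits carry the flavin and the iron-sulfur clusters. None of these 7 had an unadjusted p under 0.05, and their median log2 fold change was 0.02 with all libraries and -0.06 without siR-GAL3 replicate 2. NDUFS1, the largest core subunit, had values of 9.48, 9.83 and 9.23 in siR-Con and 9.18, 8.62 and 8.30 in siR-GAL3. All siR-GAL3 values lay below all siR-Con values, with a log2 fold change of -0.12 ± 0.0674 (SE, n = 3 per group, limma, BH-adjusted p = 0.590).

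Of the other core subunits, NDUFV1, which binds NADH and the flavin, was at 9.54, 9.64 and 8.55 in siR-Con and 9.02, 10.6 and 8.56 in siR-GAL3. NDUFV2, NDUFS3 and NDUFS7 had log2 fold changes of 0.14, 0.18 and 0.09 with BH-adjusted p-values in limma of 0.674, 0.636 and 0.723. In each of these subunits siR-GAL3 replicate 2 was the highest library and the groups overlapped. NDUFS8, an iron-sulfur subunit near the ubiquinone site, split the siR-GAL3 group, with values of 4.10, 3.75 and 3.90 in siR-Con and 2.76, 5.91 and 3.33 in siR-GAL3. Replicates 1 and 3 lay below every siR-Con library and replicate 2 above. Its log2 fold change was -0.02 over all libraries (limma, BH-adjusted p = 0.964) and -0.28 without siR-GAL3 replicate 2, where the BH-adjusted p from limma was 0.0974.

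The other 27 tested members of complex I, most of them accessory subunits that assemble and stabilise it, had siR-GAL3 replicate 2 as the highest library without exception. Their median log2 fold change was 0.22, and 0.05 without that library. In the deviation from the siR-Con mean, siR-GAL3 replicate 2 lay at a median of 0.54 for these members and of 0.36 for the core. The difference between core and other subunits was not tested.

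NDUFC1, a small accessory subunit of the membrane arm, was at 2.35, 2.45 and 2.39 in siR-Con and at 3.03, 4.46 and 2.97 in siR-GAL3. Here replicates 1 and 3 of siR-GAL3 also lay above every siR-Con library. Its log2 fold change was 0.39 ± 0.13 (SE, n = 3 per group, limma, BH-adjusted p = 0.491). Without siR-GAL3 replicate 2 it was 0.24, with a BH-adjusted p from limma of 0.0507, so it stayed short of the threshold of 0.05 in both fits.

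NDUFB3, NDUFA8, NDUFB10, NDUFB9 and NDUFA4 were also higher in siR-GAL3 without overlap. NDUFB3, a membrane-arm subunit, had values of 3.42, 3.00 and 3.39 in siR-Con and 3.66, 5.57 and 3.77 in siR-GAL3 (log2 fold change 0.30 ± 0.14, SE, limma, BH-adjusted p = 0.580). NDUFA8, which lies on the intermembrane-space side, had values of 5.99, 6.17 and 5.42 against 6.47, 11.3 and 6.94 (log2 fold change 0.39 ± 0.19, SE, limma, BH-adjusted p = 0.585). In both, siR-GAL3 replicate 2 stood far above and replicates 1 and 3 just above the siR-Con range. NDUFB10 was at 7.13, 6.83 and 6.70 against 7.14, 10.5 and 8.15, and here replicate 1 exceeded the highest siR-Con library by less than the spread within siR-Con. NDUFB9 and NDUFA4 had log2 fold changes of 0.28 and 0.36 with BH-adjusted p-values in limma of 0.590 and 0.596.

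NDUFA4 carries a complex I symbol but is known as a subunit of complex IV. As a ratio to the siR-Con mean, it had, together with ATP5ME, the highest value of all tested members in siR-GAL3 replicate 2, with values of 4.52, 4.61 and 4.44 in siR-Con and 4.84, 9.62 and 4.78 in siR-GAL3, which put replicate 2 at 2.13 times the siR-Con mean. Its paralogue NDUFA4L2, known to be induced by hypoxia, was below the mean of 1 and had values of 0.552, 0.608 and 0.639 against 0.549, 1.23 and 0.549. In both genes replicate 2 was the highest library and the other siR-GAL3 values were close to siR-Con. NDUFAB1, the mitochondrial acyl carrier protein, which is part of complex I as well, was the least abundant tested member of complex I at a mean of 1.48.

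Complex III consists of the core proteins UQCRC1 and UQCRC2, the catalytic Rieske iron-sulfur protein UQCRFS1 and a set of small subunits, beside cytochrome b and cytochrome c1. UQCRC2 was at 14.4, 14.6 and 14.5 in siR-Con and 13.7, 12.7 and 12.9 in siR-GAL3, and it was the only tested member with its lowest value in siR-GAL3 replicate 2. Each siR-GAL3 library was below each siR-Con library, with a log2 fold change of -0.14 ± 0.0631 (SE, n = 3 per group, limma, BH-adjusted p = 0.580). Its partner UQCRC1, at 13.1, 12.4 and 11.7 against 12, 14 and 12.1, and UQCRFS1, at 14.3, 11.8 and 13.1 against 12.9, 14.4 and 12.3, overlapped between groups.

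Among the small subunits, UQCRB-PS1 was listed at 14.4, 16.8 and 15.1 in siR-Con and 17.9, 26.2 and 18.2 in siR-GAL3 without overlap (log2 fold change 0.39 ± 0.15, SE, limma, BH-adjusted p = 0.541). The entry is a pseudogene in RefSeq, which gives UQCRB as an older name of it, and the gene listed as UQCRB was at 0.845, 0.785 and 0.839 against 0.919, 1.52 and 0.817. Reads of near-identical copies can be split or assigned to either, so the level of this subunit is uncertain. UQCRQ, UQCRH, UQCR10 and UQCR11 had log2 fold changes of 0.25, 0.15, 0.23 and -0.02 with BH-adjusted p-values in limma of 0.632, 0.751, 0.590 and 0.964. All of them were highest in siR-GAL3 replicate 2. Without this library the log2 fold changes of the 4 were 0.00311, -0.12, 0.08 and -0.23 (limma, BH-adjusted p-values of 0.990, 0.461, 0.594 and 0.296).

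Complex IV, cytochrome c oxidase, has a mitochondrially encoded catalytic core, and its nuclear subunits regulate and stabilise it. All 12 tested members were highest in siR-GAL3 replicate 2, and none had an unadjusted p under 0.05. COX4I1, the main isoform of a regulatory subunit and the most abundant member, was at 23.5, 24.4 and 23.3 in siR-Con and 24.6, 32.1 and 25 in siR-GAL3 (log2 fold change 0.18 ± 0.11, SE, limma, BH-adjusted p = 0.591). COX6C was at 20.6, 22.5 and 21.3 against 23.1, 34.0 and 23.7 (log2 fold change 0.29 ± 0.15, SE, limma, BH-adjusted p = 0.585), and COX6A1 at 22.1, 19.2 and 20.2 against 22.2, 29.7 and 22.6 (log2 fold change 0.26 ± 0.12, SE, limma, BH-adjusted p = 0.585). These were the members of the complex without overlap, and in all of them replicates 1 and 3 of siR-GAL3 exceeded the siR-Con range by small margins. COX7A2L, a factor that joins complexes III and IV into supercomplexes, had a log2 fold change of 0.22 with overlapping groups (limma, BH-adjusted p = 0.590). COX5A had the only negative log2 fold change in complex IV over all libraries, at -0.01 ± 0.17 (SE). Without siR-GAL3 replicate 2 it was at -0.19 (limma, BH-adjusted p = 0.402) and 4 tested members of the complex were negative.

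Several subunits of complex IV exist as isoforms that differ between tissues, and the widely expressed forms carried most of the signal. Mean levels in siR-Con (± SD, n = 3) were 23.7 ± 0.590 for COX4I1 and 1.6 ± 0.0510 for COX4I2, an isoform known from lung and hypoxia. COX6A1 was at 20.5 ± 1.5 and its heart and muscle isoform COX6A2 at 0.859 ± 0.185. COX6B1 was at 11.6 ± 0.638, whereas COX6B2, known from testis, was at 0.318 ± 0.0930. COX7A2 was at 2.26 ± 0.433 and the muscle isoform COX7A1 at 0.104 ± 0.0431, and COX8A was at 13.2 ± 1.39 while COX8B was close to 0 in every library. The order within each pair was the same in all 6 libraries. COX4I2, COX6B1, COX7A2 and COX8A had log2 fold changes of 0.20, 0.11, 0.24 and 0.15 (limma, BH-adjusted p-values of 0.628, 0.703, 0.652 and 0.656), with overlapping groups. Leaving out siR-GAL3 replicate 2 gave 0.00988, -0.04, -0.02 and 0.000165.

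Complex V couples a membrane part, Fo, through which protons flow, to the catalytic F1 head. The catalytic β subunit ATP5F1B and its partner, the α subunit ATP5F1A, were the most abundant of all members and were lower in siR-GAL3. ATP5F1A had values of 51.0, 48.3 and 48.7 in siR-Con and 45.4, 45.4 and 41.4 in siR-GAL3 (log2 fold change -0.16 ± 0.0703, SE, limma, BH-adjusted p = 0.577). ATP5F1B had values of 59.4, 52.9 and 52.3 against 50.6, 49.1 and 48.3 (log2 fold change -0.15 ± 0.0750, SE, limma, BH-adjusted p = 0.585). In neither subunit did the groups overlap, and siR-GAL3 replicate 2 lay beside its replicates. Without that library the log2 fold changes were -0.18 and -0.14, with BH-adjusted p-values in limma of 0.201 and 0.359.

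The remaining F1 subunits form the stalk that turns within the head. ATP5F1E, the ε subunit, was at 10.5, 9.94 and 9.57 in siR-Con and 10.9, 16.7 and 10.7 in siR-GAL3 without overlap (log2 fold change 0.30 ± 0.16, SE, limma, BH-adjusted p = 0.589). The γ subunit ATP5F1C and the δ subunit ATP5F1D had log2 fold changes of 0.10 and 0.15 and overlapped between groups. In siR-GAL3 replicate 2, ATP5F1E was at 1.66 times, ATP5F1D at 1.41 times and ATP5F1C at 1.24 times the siR-Con mean, beside 0.921 times for ATP5F1A and 0.895 times for ATP5F1B. Subunits of 1 assembled head thus had unequal values in the same library.

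ATP5IF1, the inhibitor that stops F1 from hydrolysing ATP when the proton gradient fails, had the largest log2 fold change of all tested members. This rank holds on the log2(value + 1) scale, which understates low genes. In percent of the siR-Con mean, NDUFC1 was further above it, by 45.6% against 42.0% for ATP5IF1. ATP5IF1 was at 13.7, 14.9 and 14.7 in siR-Con and 16.2, 27.4 and 17.8 in siR-GAL3, with replicates 1 and 3 above the siR-Con range and replicate 2 well above both. The log2 fold change was 0.44 ± 0.18 (SE, n = 3 per group, limma, BH-adjusted p = 0.568). Without siR-GAL3 replicate 2 it was 0.22, with a BH-adjusted p from limma of 0.136. The ratio of the inhibitor to the catalytic subunits was not tested.

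In the Fo part, 3 genes encode the same mature c-ring protein. ATP5MC1 was at 6.51, 5.58 and 6.90 in siR-Con and 6.78, 10.3 and 6.58 in siR-GAL3, and ATP5MC2 was at 15.4, 13.5 and 14.4 against 13.3, 21.1 and 14.6. Both were highest in siR-GAL3 replicate 2, with overlapping groups. ATP5MC3, at 15.8, 11.9 and 12.9 against 11.1, 14.9 and 11.1, had its highest value in siR-Con replicate 1 and a log2 fold change of -0.12 (limma, BH-adjusted p = 0.703). Without siR-GAL3 replicate 2 it was -0.25 (limma, BH-adjusted p = 0.283). ATP5MG, a small Fo subunit at the dimer interface, was at 14.9, 13.3 and 15.7 against 16.5, 20.5 and 15.8 without overlap (log2 fold change 0.25 ± 0.11, SE, limma, BH-adjusted p = 0.585).

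**Figure D3:**
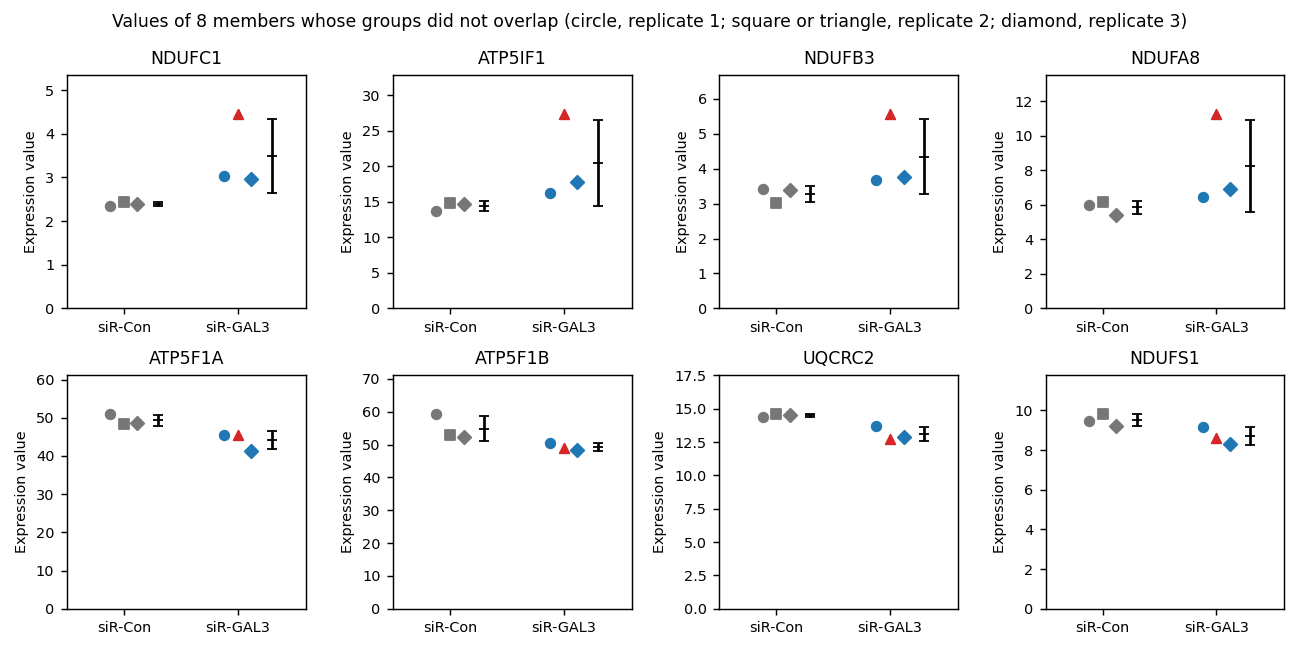
Expression values (y axis, linear FPKM-derived values from 0) of 8 members whose groups did not overlap, by group (x axis). Grey circle, square and diamond are siR-Con replicates 1, 2 and 3, blue circle and diamond are siR-GAL3 replicates 1 and 3, the red triangle is siR-GAL3 replicate 2, and black marks give the mean ± SD (n = 3). NDUFC1, ATP5IF1, NDUFB3 and NDUFA8 are higher in siR-GAL3 with replicate 2 far above, and ATP5F1A, ATP5F1B, UQCRC2 and NDUFS1 are lower with replicate 2 among its group.

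NDUFS1, UQCRC2, ATP5F1A and ATP5F1B thus lay below the siR-Con mean in siR-GAL3 replicate 2. They are large core or catalytic subunits, and they were named together after their values were seen. Other core or catalytic subunits did not share this. UQCRC1 and UQCRFS1 were at 1.13 and 1.10 times the siR-Con mean in this library, and 5 of the 7 complex I core subunits were highest in it. The highest ratios among tested members were those of NDUFA4 and ATP5ME, at 2.13 times the siR-Con mean in this library. Without siR-GAL3 replicate 2, 5 members were higher and 8 lower at an unadjusted p under 0.05, against 6.98% and 9.36% of all genes. None had an adjusted p under 0.05 in limma with Benjamini-Hochberg adjustment, against 1.97% of all genes, and none met the cutoff on fold change and unadjusted p, against 0.341%. The 5 were NDUFC1, ATP5IF1, UQCRB-PS1, NDUFA8 and NDUFB3, and the 8 were NDUFS8, NDUFA5, ATP5F1A, ATP5MF, NDUFA10, ATP5MC3, UQCRC2 and UQCR11.

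**Figure D4:**
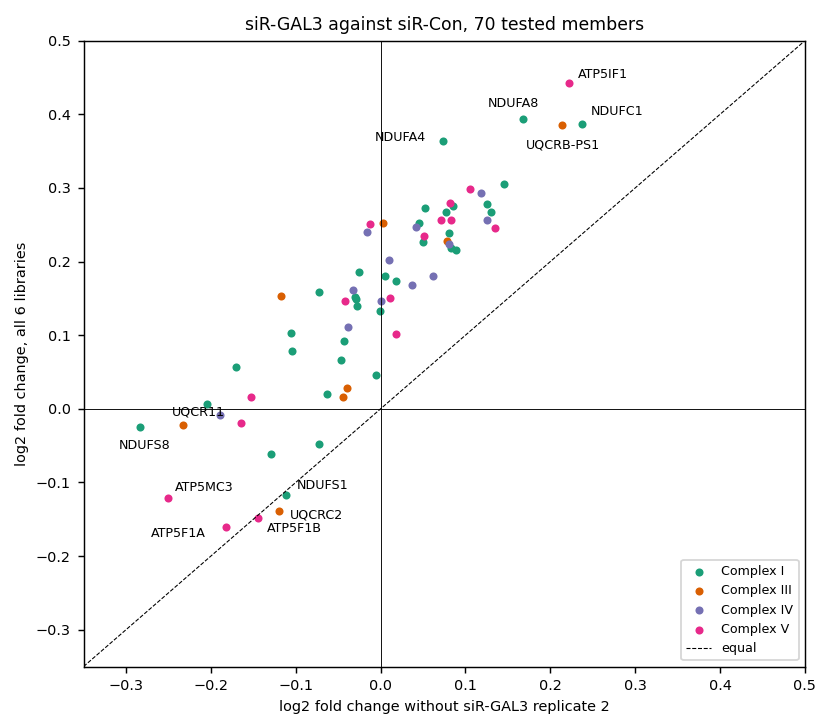
Log2 fold change of each tested member over all 6 libraries (y axis) against that without siR-GAL3 replicate 2 (x axis), on the log2(value + 1) scale and coloured by complex, with a dashed line of equality. Most members lie above the line, around 0.00 on the x axis and 0.17 on the y axis, and UQCRC2, ATP5F1B and NDUFS1 lie close to the line on the negative side.

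The members below the mean of 1 included isoforms of other tissues and pseudogenes but also subunits that every complex holds. ATP5PB, a peripheral stalk subunit of complex V, was listed at a mean of 0.113, whereas the stalk subunits ATP5PD, ATP5PO and ATP5PF were at 22.5, 13.0 and 5.78. NDUFA12, COX7B and UQCRB were at 0.502, 0.876 and 0.954. Of the 13 members that were not tested, 8 had their highest value in siR-GAL3 replicate 2. COX7B was among them, with values of 0.727, 0.748 and 0.487 in siR-Con and 0.641, 1.91 and 0.744 in siR-GAL3. Nearest to the limit were UQCRB below it and NDUFAB1 and COX7A2L2 above it, both of the latter at a mean of 1.48. Pseudogenes apart, the median log2 fold change of the 69 tested members was 0.17.

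Promoter sequences are shown for members whose groups did not overlap, in either direction, and for an example of the NRF1 motif. None of these members had an adjusted p under 0.05 in limma. NRF1 and the ETS factor GABP are known regulators of many nuclear respiratory genes. Of 83 members, 69 matched a RefSeq promoter (GRCr8, 250 bases before to 50 after the start). The ETS letters CCGGAAG, on either strand, occurred in 18 of the 69 (26.1%), against 11.2% of all 18999 protein-coding promoters. The NRF1 letters CGCATGCG, which read the same on both strands, occurred in 7 of 69 (10.1%), against 2.23%. The median GC content was 56.0% for members and 55.3% for all promoters. The 2 motifs share no position in the sequences printed here, which give the 150 bases before the start, 5′ to 3′ on the strand of the gene, with motif letters in capitals.
NDUFC1, GRCr8 chr2:137601736-137601885, minus strand: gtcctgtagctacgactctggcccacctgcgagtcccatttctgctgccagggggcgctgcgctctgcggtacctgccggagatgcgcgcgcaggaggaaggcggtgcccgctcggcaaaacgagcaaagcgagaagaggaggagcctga
ATP5IF1, GRCr8 chr5:150026678-150026827, minus strand: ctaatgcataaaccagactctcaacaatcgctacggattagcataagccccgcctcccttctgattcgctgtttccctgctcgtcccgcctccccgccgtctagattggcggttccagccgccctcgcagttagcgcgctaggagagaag
UQCRC2, GRCr8 chr1:184599090-184599239, plus strand: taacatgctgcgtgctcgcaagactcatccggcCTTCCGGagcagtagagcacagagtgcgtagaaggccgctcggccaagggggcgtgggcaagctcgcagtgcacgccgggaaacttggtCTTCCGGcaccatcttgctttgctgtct
ATP5PO, GRCr8 chr11:44657484-44657633, minus strand: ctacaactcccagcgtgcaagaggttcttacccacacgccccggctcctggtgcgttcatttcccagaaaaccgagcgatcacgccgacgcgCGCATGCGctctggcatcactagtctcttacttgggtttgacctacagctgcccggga

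The stretch of UQCRC2 holds the ETS letters at 2 positions, which begin 117 and 28 bases before the start and read CTTCCGG on this strand. That of ATP5PO holds the NRF1 letters from 58 bases before the start. Those of NDUFC1 and ATP5IF1 hold neither, which says only that these letters are not in this window. The following holds for the longer window of 250 bases before to 50 after the start. Of the other members that were lower without overlap, ATP5F1A and NDUFS1 held letters of either motif and ATP5F1B did not. Of the 13 that were higher without overlap, COX4I1 and ATP5MG held them, and UQCRB-PS1, a pseudogene, had no matched promoter. Of ATP5F1A, NDUFS1, COX4I1 and ATP5MG, only ATP5F1A had them within the 150 bases before the start. Over all 69 members with a promoter, 26.1% held the ETS letters and 10.1% the NRF1 letters. The higher and lower members were picked after their values were seen, and a difference in motifs between them was not tested. A match describes the letters and is no measure of binding.

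The mitochondrially encoded subunits of the same complexes were listed as well, and 12 of 13 entered the test. The median of their log2 fold changes was -0.02, and siR-GAL3 replicate 2 lay at a median of 0.03 from the siR-Con mean and was highest in 3 of 12. The shift of nuclear-encoded subunits in that library was thus not seen in the median of the mitochondrial ones. Several mitochondrial genes, however, held exactly equal values within a library set. In the set that holds siR-GAL3 replicate 3, every library had CYTB at 802 and ND1 at 460. In siR-GAL3 replicate 2 these genes were at 902 and 515. Whether values tied in this way leave room for a shift was not tested, so the contrast describes only the listed values. ND5, a proton-pumping subunit of complex I, was at 381, 395 and 395 in siR-Con and 350.0, 234 and 329 in siR-GAL3 without overlap (log2 fold change -0.38 ± 0.15, SE, limma, BH-adjusted p = 0.551), with its lowest value in replicate 2. ND4L, also of complex I, was at 84.2, 97.5 and 94.0 against 86.2, 63.1 and 82.3. The catalytic complex IV subunit COX1 was listed at 1465 in 5 libraries and at 1197 in siR-GAL3 replicate 2, and COX2 at 221 in siR-Con replicate 1 and 1189 to 1408 elsewhere.

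Complex II, which feeds electrons from succinate, and the cytochromes c1 and c complete the chain. None of these 6 genes had an unadjusted p under 0.05, and their median log2 fold change was 0.05. SDHB was at 16.0, 16.4 and 17.0 in siR-Con and 17.8, 19.8 and 17.3 in siR-GAL3, and CYCS, the electron carrier cytochrome c, at 12.9, 12.3 and 13.0 against 13.6, 18.2 and 13.4, both higher without overlap. SDHA, the flavoprotein of complex II, was lower without overlap, at 12.1, 12.9 and 12.2 against 11.4, 11.6 and 11.4 (log2 fold change -0.11 ± 0.0621, SE, limma, BH-adjusted p = 0.590). SDHC, SDHD and CYC1 had log2 fold changes of -0.03, 0.14 and -0.07. In siR-GAL3 replicate 2 the median of the 6 lay 0.21 above the siR-Con mean.

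Assembly factors help to build the complexes without staying in them. Against 4.41% and 4.25% of all genes, 1 of 9 tested factors of complex I was higher at an unadjusted p under 0.05 and 0 were lower. This was NDUFAF8, at 1.15, 1.27 and 1.19 in siR-Con and 1.49, 2.00 and 1.80 in siR-GAL3 (log2 fold change 0.32 ± 0.0812, SE, limma, BH-adjusted p = 0.309), with each siR-GAL3 library above siR-Con. None of the 4 tested factors of complex III, 13 of complex IV and 3 of complex V had an unadjusted p under 0.05. The smallest BH-adjusted p-values in limma were 0.624 for UQCC2, 0.585 for COA4 and 0.636 for ATPAF1. In siR-GAL3 replicate 2 the median factor lay 0.23, 0.38, 0.24 and 0.09 above the siR-Con mean for complexes I, III, IV and V.

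Regulators of mitochondrial biogenesis were tested for 6 of 11 genes, and none had an unadjusted p under 0.05. The coactivator gene PPARGC1A was listed below the mean of 1. NRF1 was at 2.35, 2.26 and 2.24 in siR-Con and 2.42, 2.34 and 2.28 in siR-GAL3, and GABPA at 2.05, 2.11 and 2.32 against 2.01, 1.88 and 2.11, with overlapping groups in both. TFAM, which packages and transcribes mitochondrial DNA, was at 3.47, 2.91 and 3.19 against 2.97, 4.35 and 3.34, again highest in siR-GAL3 replicate 2. Of 12 other mitochondrial proteins, 2 were lower at an unadjusted p under 0.05, against 4.25% of all genes, and 0 were higher, against 4.41%. SLC25A4, the carrier that exchanges ADP for ATP, was at 60.2, 56.0 and 58.1 against 47.5, 52.9 and 43.4 (log2 fold change -0.28 ± 0.0882, SE, limma, BH-adjusted p = 0.470), and HSPD1, a matrix chaperonin, at 25.3, 25.3 and 24.7 against 22.4, 22.6 and 22.3 (log2 fold change -0.16 ± 0.0598, SE, limma, BH-adjusted p = 0.536). In both, the siR-GAL3 libraries lay below every siR-Con library, as they did for ATP5F1A and ATP5F1B. SLC25A4 passed the threshold without siR-GAL3 replicate 2, at -0.35 (limma, BH-adjusted p = 0.0382), as did 1.97% of all genes. It also passed in the fit that blocks on library set (limma, BH-adjusted p = 0.0430). That fit is no second test, because siR-GAL3 replicate 2 adds nothing to its group difference. In siR-GAL3 replicate 2 the median of the 12 lay 0.17 above the siR-Con mean and 7 of 12 had their highest value, among them TOMM20, an import receptor of the outer membrane, at 13.0, 13.6 and 12 against 13.3, 18.4 and 13.8.

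Some marker lists of other cells differed with the group and in part with siR-GAL3 replicate 2. With all 6 libraries no gene of the marker lists had an adjusted p under 0.05 (limma, smallest BH-adjusted p = 0.101). When siR-GAL3 replicate 2 was left out, 4 microglia markers were higher at an adjusted p under 0.05, against 1.97% of all genes in either direction. They were CD68, AIF1, PTPRC and ITGAM (limma, BH-adjusted p-values of 0.00710, 0.0169, 0.0183 and 0.0417). In the fit that blocks on library set, 3 of these passed, among 106 of all 8495 genes. That fit is no second test, because siR-GAL3 replicate 2 adds nothing to its group difference. At an unadjusted p under 0.05, 6 of 13 tested microglia markers were higher in siR-GAL3 and 0 lower, 3 of 7 astrocyte markers and 3 of 5 fibroblast and endothelial markers were lower, and 1 of 5 neuron markers was higher. Of 10 tested oligodendrocyte lineage markers, 0 were higher and 0 lower. Of all genes, 4.41% were higher and 4.25% lower at this threshold. In siR-GAL3 replicate 2 the median marker deviated from the siR-Con mean by 0.21 for microglia, -0.29 for astrocytes and -0.37 for fibroblasts and endothelium. The neuron and oligodendrocyte lineage lists were at -0.07 and 0.01, beside 0.52 for the respiratory members.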

How the data were processed

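A total of 6 libraries of RNA from cultured rat spinal cord neurons were analysed, 3 per group. By the study's supplement, the authors aligned reads with STAR, counted them with HTSeq and estimated FPKM, and its methods add batch removal, standardization and correction within groups. The genome build is not given in the sources used here. The deposited values are therefore treated as a score derived from FPKM by the authors, some of them below 0, and not as the FPKM that had been planned for. Correction within groups can narrow the spread between replicates and so make p-values too small.

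After negative values had been raised to 0, genes averaging at least 1 across libraries (8495) were fitted on the log2(value + 1) scale by limma 3.58.1 in R 4.3.3 with a trend, two-sided, with Benjamini-Hochberg adjustment over all of them. Fold changes on this scale understate low genes. The fit was run on simulated data with independent noise of equal spread in all libraries. That run cannot speak to the library sets or to the wider spread of siR-GAL3 replicate 2. Tables were made in Python 3.11.15 with pandas 2.3.3. Members and gene lists were chosen with earlier results of these data known, and medians and counts over them carry no test. Named genes were, in each complex, the 4 members with the smallest p and those with the highest and lowest mean, core subunits, isoform pairs, the mitochondrially encoded, complex II and cytochrome c genes, and the 2 genes with the smallest p of other lists, of which not every one is printed. Other members were added for the lack of overlap between groups, after their values were seen. Alternatives were a pseudocount of 0.1, no filter, quantile and median-ratio scaling, the replicate number or the library set as a block, untransformed values and leaving out each library. All 83 members matched a RefSeq symbol (GRCr8). The values of 1 member of complex I are not reported here by name, although it is included in counts and medians.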

Additional observations from a re-analysis of the deposited data

How the results depend on the processing

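No alternative gave a member an adjusted p under 0.05 (limma, BH), but the counts at an unadjusted p under 0.05 depended on the processing. Against 3 higher and 0 lower (4.41% and 4.25% of all genes), there were 1 and 2 without the filter (5.03% and 4.17%), 3 and 1 with quantile normalization (4.59% and 4.54%) or median-ratio scaling (4.74% and 4.36%), 5 and 9 with a block for the library set (5.92% and 7.90%), and 0 and 3 with untransformed values (4.39% and 4.27%). Leaving out 1 library gave 0 to 10 higher and 0 to 8 lower members, the extremes being reached without siR-Con replicate 1 or 3 (0 higher), siR-GAL3 replicate 1 (10 higher) and siR-GAL3 replicate 2 (8 lower). Deviations from the group means showed no clear correlation between libraries of the same replicate number (r = -0.17, -0.07 and 0.04 for numbers 1 to 3). Both libraries numbered 1 shared a library set, as did both numbered 3, so this check cannot decide whether libraries were paired. The replicate block gave 6 higher and 0 lower (3.44% and 2.95%). With a block for the library set, in which siR-GAL3 replicate 2 has no siR-Con partner, 24 of the 70 tested members turned negative, 11 of them among the 38 tested members that the naming rule selects: ATP5F1D at -0.0014, ATP5MC2 at -0.046, COX6B1 at -0.048, COX7A2 at -0.0064, COX8A at -0.024, NDUFS7 at -0.046, NDUFV1 at -0.075, NDUFV2 at -0.038, UQCRC1 at -0.049, UQCRFS1 at -0.067 and UQCRH at -0.12. Leaving out siR-GAL3 replicate 2 alone turned 23 of the 70 negative. Among the 38, log2 fold changes of either sign were found with 1 library left out for ATP5MC2 (-0.042 to 0.27), COX6B1 (-0.039 to 0.19), COX7A2 (-0.016 to 0.40), NDUFS7 (-0.043 to 0.17), NDUFS8 (-0.28 to 0.15), NDUFV1 (-0.064 to 0.078), NDUFV2 (-0.028 to 0.22), UQCR11 (-0.23 to 0.11), UQCRC1 (-0.040 to 0.065), UQCRFS1 (-0.052 to 0.079) and UQCRH (-0.12 to 0.33). The median over all members stayed between 0.002 and 0.27 with 1 library left out, the lowest being that without siR-GAL3 replicate 2. The cause of these changes was not tested. The depth of the libraries is unknown, so the precision of low values cannot be given.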
